A study of Macaca mulatta with 51 samples.

Results

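Fatty acid oxidation was followed through 34 genes in AT and SM of rhesus macaques given FGF21. The genes were chosen by name: every gene of the count table whose human symbol stood on a list of 35 genes of the pathway was taken, and 34 of the 35 were found, out of 16033 genes in all. The remaining gene, HSD17B4, was not analysed here. The animals were obese, non-diabetic rhesus macaques of both sexes, 11 to 22 years old and kept on a high-fat diet, and the females had been ovariectomized, so that these conditions were shared by all groups. Native human FGF21, a hormone that acts on energy metabolism, was injected under the skin daily for 12 weeks at doses that were raised stepwise to 1000 µg per kg and day, with 1 animal held below that dose because of its weight loss. Punch biopsies of subcutaneous AT and of the gastrocnemius, a calf muscle (SM), were taken before treatment (pre-treatment), at its end (post-treatment) and 16 weeks after it was stopped (washout). No animal was left untreated, so each animal's own pre-treatment sample is the control, and treatment, weight loss and the passing of time cannot be told apart. Counts were at hand for 10 pre-treatment, 9 post-treatment and 8 washout AT libraries from 10 animals and for 6, 8 and 7 SM libraries from 8 animals.

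Fatty acids enter a cell with the help of transport and binding proteins and are activated to acyl-CoA by synthetases. The carnitine shuttle carries long-chain acyl groups into the mitochondrion, with CPT1 as its controlled step, and there a cycle of 4 reactions, begun by the acyl-CoA dehydrogenases, shortens the chain by a 2-carbon unit at a time and hands electrons to the respiratory chain. Peroxisomes shorten chains by a similar route, and the nuclear receptors PPARA and PPARD switch on many genes of the pathway. SM burns fatty acids as a fuel, while white AT mainly stores and releases them.

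The total count per library ranged from 14455195 to 23940980, and all 34 genes passed the filter on low counts in both tissues. Levels are given in CPM, that is, as counts scaled to a common library total among the libraries of 1 tissue; they are not divided by gene length, so they are compared between samples and not between genes. Differentially expressed (DE) means that the adjusted p lay under 0.05 and that the log2 fold change was larger in size than 0.26. The p values come from edgeR's two-sided quasi-likelihood test, with time point and animal as model terms, and were adjusted by the Benjamini-Hochberg method for the whole table of tested genes. The defining markers went with the labelled tissue: 10 muscle fibre markers summed to between 53.9 and 170 CPM in AT libraries and between 54990 and 262559 CPM in SM libraries, and 4 adipocyte markers to between 9439 and 32426 CPM in AT and between 36.7 and 1174 CPM in SM. The library identifiers fall into a first, a middle and a last number series, which may or may not be batches; AT held 0, 3 and 7 libraries of them pre-treatment, 0, 2 and 7 post-treatment and 1, 3 and 4 at washout, and SM held 3, 1 and 2, then 5, 0 and 3, then 0, 1 and 6.

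In AT, 12 of the 34 genes were DE when post-treatment libraries were set against pre-treatment ones: 3 were higher and 9 lower. PDK4, CPT1A and SLC27A1 rose, while genes of the acyl-CoA dehydrogenase step (ACAD9, ACADS, ACADM, ACADVL), of the peroxisomal route (EHHADH, ACAA1), of electron transfer (ETFDH), of the later steps of the cycle (HADHA) and the synthetase ACSL1 fell. Over all 13367 genes tested in AT, 15.5% were DE, 6.98% as higher and 8.49% as lower. Counting every gene whatever its p, 25 of the 34 had a negative log2 fold change and 9 a positive one, with a median of -0.18 against 0.03 over all genes tested. The DE changes ran from -0.77 for ACAD9 and EHHADH to 1.12 for PDK4. When libraries were scaled by their totals alone, the median over all genes moved from 0.03 to 0.06, and 14 genes were DE, 5 higher and 9 lower. With voomWithQualityWeights of limma, which the study used, 11 genes were DE, 2 higher and 9 lower. SLC27A1, ACAA1 and HADHA lost the call there, and CRAT and ECHS1 gained it. With only the 2 time points compared, ACAA1 and HADHA lost the call, and DECR1 and ECHS1 gained it.

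From the end of treatment to washout, 10 of the 34 genes were DE in AT (5 rose and 5 fell), against 35.4% of all genes tested (17.6% higher and 17.8% lower). PDK4, FABP3, CPT1A, ACSL4 and ACSL5 fell, and ACAD9, ACADL, EHHADH, ECHS1 and DECR1 rose. Of the 34 genes, 19 had a positive and 15 a negative log2 fold change, with a median of 0.04 against -0.00 over all genes. The post-treatment libraries enter both comparisons, so a gene with an unusual post-treatment level is moved in opposite directions by construction, and the values of each comparison are given side by side below.

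**Figure D1:**
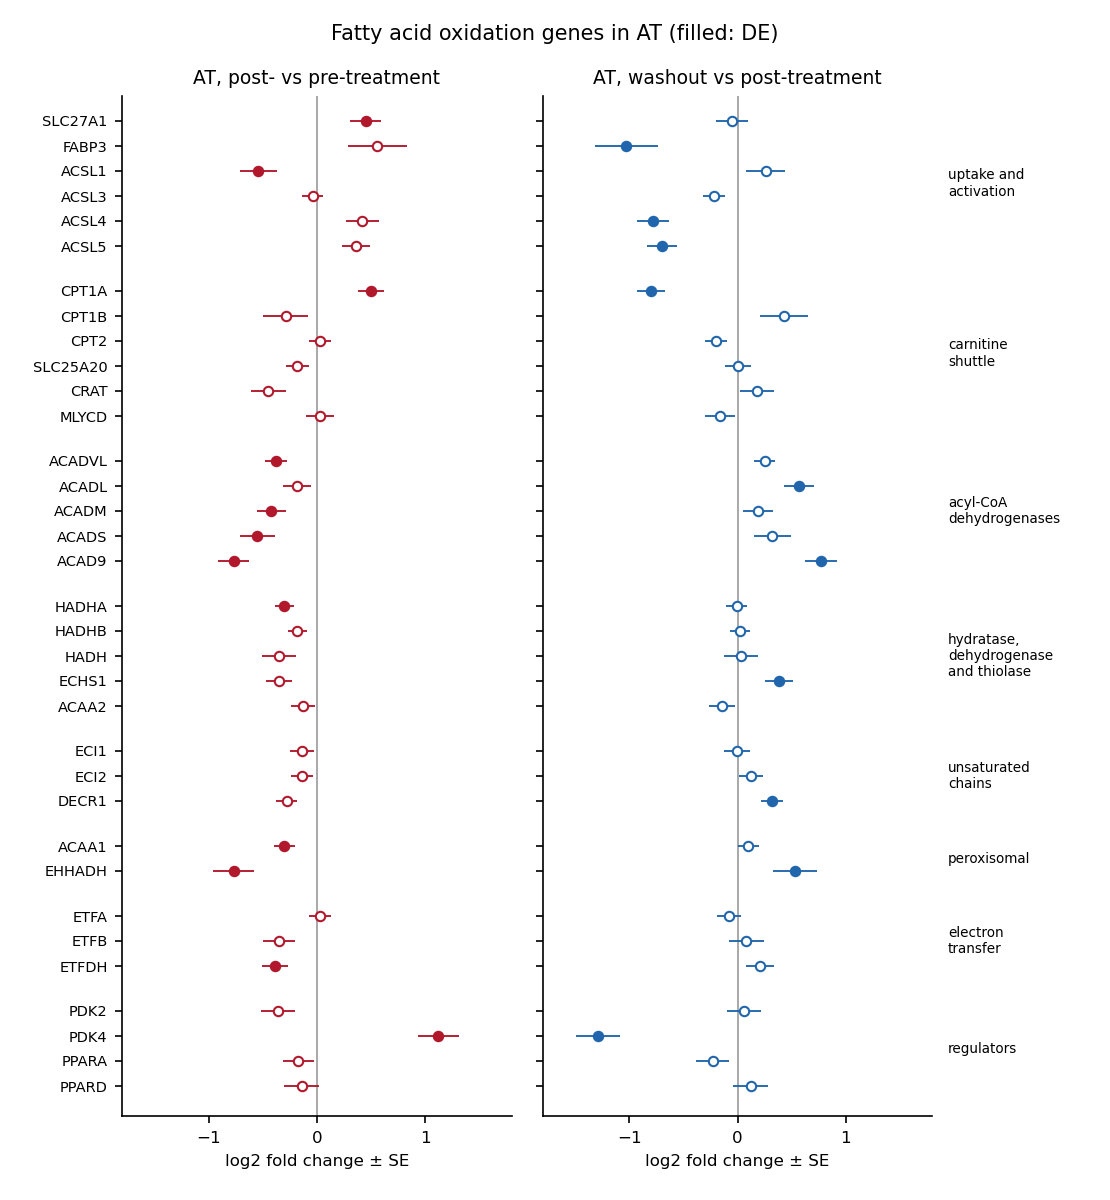
Log2 fold changes with standard errors of the 34 genes in AT, grouped by role, post- vs pre-treatment on the left (x axis) and washout vs post-treatment on the right; filled points are DE. PDK4 lies farthest right on the left (1.12) and farthest left on the right (-1.29), and all 5 acyl-CoA dehydrogenases lie left of 0 on the left and right of 0 on the right.

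PDK4 (ENSG00000004799), a kinase that switches off pyruvate dehydrogenase and so spares glucose when fatty acids are burnt, changed most. In AT it lay between 82.7 and 370 CPM pre-treatment (median 225), between 198 and 590 CPM post-treatment (median 519) and between 108 and 469 CPM at washout (median 157). Every one of the 9 animals with both samples was higher post-treatment, animal 20456 by as little as 0.07 and animal 24849 by as much as 1.90 on the log2 scale, although the groups overlapped, since animals 20456 and 22130 were already at 370 and 362 CPM pre-treatment and animals 23004 and 20261 reached only 198 and 342 CPM post-treatment. The log2 fold change was 1.12 (SE 0.19, adjusted p = 0.00235), a 2.17-fold increase. From there to washout PDK4 fell in 8 of 8 animals (log2 fold change -1.29, SE 0.20, adjusted p = 0.000116), with animal 22130 alone still above 216 CPM. Its relative PDK2 was at 67.3 ± 13.1 CPM (mean ± SD, n = 10) pre-treatment, 53.1 ± 11.1 (n = 9) post-treatment and 54.6 ± 12.8 (n = 8) at washout. The change of PDK2 post-treatment, -0.36 (SE 0.16), did not pass the test (adjusted p = 0.118), though 8 of 9 animals were lower.

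The receptors PPARA and PPARD were DE in neither comparison. PPARA (ENSG00000186951) lay between 20.6 and 31.0 CPM pre-treatment (median 28.2), between 12.8 and 30.7 post-treatment (median 22.3) and between 13.9 and 29 at washout (median 18.7). The groups overlapped, and 5 of 9 animals were lower post-treatment (log2 fold change -0.17, adjusted p = 0.414). Compared to pre-treatment, PPARA was lower at washout in 8 of 8 animals by -0.40 (SE 0.15), which did not pass the test (adjusted p = 0.061). PPARD (ENSG00000112033) lay between 17.0 and 36.5 CPM pre-treatment (median 19.9), between 13.0 and 32.7 post-treatment (median 19.6) and between 13.3 and 29.8 at washout (median 22.1), with overlapping groups and no change over 0.14 in size on the log2 scale.

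Uptake and activation genes did not move together. Post-treatment 1 of 6 rose and 1 fell, against 6.98% and 8.49% of all genes tested. From there to washout 3 of 6 fell, against 17.8%. SLC27A1 (ENSG00000130304), a fatty acid transport protein, lay between 17.1 and 36.5 CPM pre-treatment (median 27.0), between 25.7 and 48.0 post-treatment (median 34.1) and between 25.3 and 56.7 at washout (median 31.1). It was higher post-treatment in 8 of 9 animals, in overlapping groups, and its change was 0.45 on the log2 scale (SE 0.14, adjusted p = 0.0394). Its washout level differed from that post-treatment by -0.05 (adjusted p = 0.801). ACSL1 (ENSG00000151726), the synthetase most tied to triglyceride storage and oxidation in fat cells, lay between 783 and 1490 CPM pre-treatment (median 1271), between 524 and 1389 post-treatment (median 751) and between 456 and 1704 at washout (median 900). Post-treatment ACSL1 was lower in 8 of 9 animals, most in animals 22130 and 24849, while animal 26292 stayed level near the top, so that the groups overlapped. The log2 fold change was -0.54 (SE 0.17, adjusted p = 0.036), and at washout ACSL1 was 0.26 above its post-treatment level (adjusted p = 0.247).

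ACSL4 and ACSL5, further synthetases, and FABP3, a fatty acid binding protein best known from heart and muscle, had positive changes post-treatment that did not pass the test and fell afterwards. ACSL4 (ENSG00000068366), which prefers arachidonic acid, lay between 103 and 161 CPM pre-treatment (median 134), between 132 and 305 post-treatment (median 159) and between 65.8 and 157 at washout (median 102). The 2 highest post-treatment libraries were those of animals 20275 and 21189, with 305 and 227 CPM. Its log2 fold change was 0.42 post-treatment (SE 0.15, adjusted p = 0.0528) and -0.78 from there to washout (SE 0.15, adjusted p = 0.000807), where 8 of 8 animals were lower. ACSL5 (ENSG00000197142) lay between 73.0 and 114 CPM pre-treatment (median 83.5), between 77.0 and 152 post-treatment (median 108) and between 48.3 and 94.9 at washout (median 64.2). Animal 20275 was again the highest post-treatment, and only animal 23004 was not lower at washout. The changes of ACSL5 were 0.36 (adjusted p = 0.06) and -0.70 (SE 0.14, adjusted p = 0.000713).

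FABP3 (ENSG00000121769) lay between 9.04 and 63.3 CPM pre-treatment (median 20.3), between 17.0 and 58.4 post-treatment (median 29) and between 3.90 and 86.4 at washout (median 11.9). Animal 23004 had the highest level at all time points, and the groups overlapped. The change post-treatment was 0.56 (SE 0.27, adjusted p = 0.152), and from there to washout FABP3 fell by 1.03 on the log2 scale (SE 0.29, adjusted p = 0.00969), in 6 of 8 animals. ACSL3, a synthetase of the endoplasmic reticulum and lipid droplets, was at 64.1 ± 8.20 CPM (mean ± SD) pre-treatment, 63.1 ± 11.2 post-treatment and 54.2 ± 9.30 at washout. Neither of its 2 changes, -0.04 and -0.22, passed the test (adjusted p = 0.832 and 0.106).

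Macrophage markers went the way of ACSL4 and ACSL5, whose changes post-treatment did not pass the test, and not the way of ACSL1, which fell, or of ACSL3. All 14 of them had positive changes post-treatment, with a median of 0.93 and 6 DE, and all 14 fell from post-treatment to washout, with a median of -1.76. Their summed level lay between 926 and 3756 CPM pre-treatment (median 2219), between 1707 and 10295 post-treatment (median 4343) and between 647 and 3926 at washout (median 1134), and none was at 0 in all libraries of a group. The libraries highest in ACSL4 and ACSL5 post-treatment, of animals 20275 and 21189, also held the most macrophage marker counts, 10295 and 7875 CPM, and at washout the library of animal 23004 was highest in macrophage markers (3926 CPM), FABP3 and ACSL5. Animal 23004 was highest in FABP3 at each time point. Its macrophage sum was highest pre-treatment too (3756 CPM) but not post-treatment (2827 CPM). PDK4 and CPT1A also rose post-treatment and fell from there to washout. The part of macrophages in the changes was not tested, and in bulk samples fewer cells of a type and less RNA per cell cannot be told apart. Adipocyte markers, 4 of 7 listed, summed to a median of 18036 CPM pre-treatment (15564 to 32426), 16411 post-treatment (9439 to 28012) and 15568 at washout (10265 to 29734). Of them PLIN1, a lipid droplet coat protein, and LEP, the hormone leptin, fell post-treatment by 0.62 and 1.93 on the log2 scale. The other 2, ADIPOQ (-0.21, adjusted p = 0.509) and FABP4, were not DE. From there to washout LEP alone of the 4 was DE, rising by 1.87, while ADIPOQ changed by -0.25 (adjusted p = 0.375). No muscle fibre marker (10 tested) and no endothelial marker (5 tested) was DE post-treatment in AT, nor was either of the 2 erythroid markers tested (2 further ones, HBA1 and HBA2, were at 0 in all libraries), while 1 of 4 stress genes, JUN, was higher by 0.50. From post-treatment to washout, beside the 10 genes of fatty acid oxidation that were DE, both erythroid markers were higher (ALAS2 by 1.8 and HBB by 1.59), as were 1 of 5 endothelial markers (CDH5 by 0.64) and 2 of 5 slow fibre markers (TNNC1 and TNNI1), and 2 of 4 stress genes were lower (HSPA1A by -0.78 and JUN by -0.52). Their part in the changes was not tested.

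**Figure D2:**
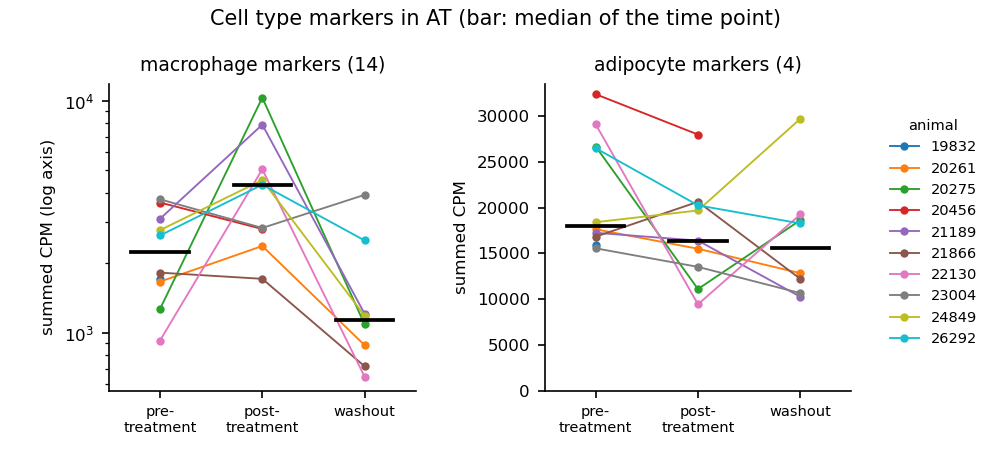
Summed CPM of 14 macrophage markers (left, log axis) and 4 adipocyte markers (right, linear axis) in each AT library at the 3 time points; lines join the libraries of 1 animal and black bars are medians. The macrophage sum is highest post-treatment in animal 20275 (10295 CPM), and the adipocyte sum is lowest post-treatment in animal 22130 (9439 CPM).

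Of the carnitine shuttle, CPT1A alone was DE, out of 6 genes, against 15.5% of all genes tested post-treatment and 35.4% from there to washout. CPT1A (ENSG00000110090), the form of the controlling enzyme found in liver and most other tissues, lay between 64.4 and 98.0 CPM pre-treatment (median 76.2), between 79.5 and 157 post-treatment (median 96.7) and between 49.7 and 79.4 at washout (median 62.2). It was higher post-treatment in 9 of 9 animals, most in animals 24849, 20275 and 22130, and lower at washout in 8 of 8, where the groups did not overlap, although by only 0.1 CPM. How many of all genes separate in this way was not counted. Its changes on the log2 scale were 0.50 (SE 0.12, adjusted p = 0.0148) and -0.80 (SE 0.13, adjusted p = 0.000156).

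CPT1B (ENSG00000205560), the muscle form, lay between 10.2 and 44.4 CPM pre-treatment (median 24.6), between 8.22 and 32.0 post-treatment (median 18.8) and between 13.4 and 29.4 at washout (median 24.5). Animals went both ways, 7 of 9 lower and 2 higher post-treatment (log2 fold change -0.29, SE 0.21, adjusted p = 0.35). CPT2 (ENSG00000157184), which regenerates acyl-CoA inside the mitochondrion, lay between 24.4 and 41.7 CPM pre-treatment (median 36.1), between 26.2 and 44.5 post-treatment (median 34.0) and between 19.1 and 39.0 at washout (median 31.0). Its changes were 0.03 and -0.20 (adjusted p = 0.876 and 0.135), in overlapping groups. SLC25A20 (ENSG00000178537), the carrier that exchanges acylcarnitine for carnitine, lay between 31.9 and 67.0 CPM pre-treatment (median 42.9), between 26.1 and 48.6 post-treatment (median 41.0) and between 30.0 and 50.5 at washout (median 36.7), with animal 22130 apart at the low end post-treatment and changes of -0.18 and -0.00. CRAT (ENSG00000095321), which buffers acetyl-CoA as acetylcarnitine, lay between 95.8 and 176 CPM pre-treatment (median 138), between 57.5 and 147 post-treatment (median 111) and between 85.6 and 132 at washout (median 119). CRAT was lower post-treatment in 8 of 9 animals, by -0.45 (SE 0.16), and did not pass the test (adjusted p = 0.0566). MLYCD (ENSG00000103150), which removes the CPT1 inhibitor malonyl-CoA, lay between 7.85 and 18.9 CPM pre-treatment (median 12.8), between 10.2 and 17.5 post-treatment (median 13.1) and between 8.96 and 13.9 at washout (median 11.8), with changes of 0.03 and -0.16.

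Acyl-CoA dehydrogenases take the first electrons from the chain and differ in the chain length they accept. Post-treatment 4 of 5 were DE and lower and none was higher, against 8.49% and 6.98% of all genes tested. ACAD9 (ENSG00000177646), which also serves in the assembly of respiratory complex I, lay between 107 and 182 CPM pre-treatment (median 138), between 46.4 and 150 post-treatment (median 77.6) and between 103 and 195 at washout (median 132). All 9 animals with both samples were lower post-treatment, down to 46.4 and 52.1 CPM in animals 20275 and 22130, and 8 of 8 were higher again at washout. ACAD9 changed by -0.77 (SE 0.14, adjusted p = 0.00327) and 0.77 (SE 0.15, adjusted p = 0.000883), and washout differed from pre-treatment by -0.01. ACADS (ENSG00000122971), for short chains, lay between 48.4 and 93.1 CPM pre-treatment (median 73.1), between 24.6 and 78.4 post-treatment (median 51.8) and between 43.2 and 81.8 at washout (median 59.2). Animal 23004 barely moved and 9 of 9 animals were lower post-treatment, by -0.55 on the log2 scale (SE 0.16, adjusted p = 0.027).

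ACADM (ENSG00000117054), for medium chains, lay between 174 and 401 CPM pre-treatment (median 305), between 152 and 259 post-treatment (median 215) and between 158 and 344 at washout (median 223). In 8 of 9 animals ACADM was lower post-treatment, by -0.42 (SE 0.13, adjusted p = 0.0368). ACADVL (ENSG00000072778), for very long chains, lay between 311 and 476 CPM pre-treatment (median 363), between 204 and 351 post-treatment (median 291) and between 288 and 450 at washout (median 321). The lowest 2 post-treatment libraries were again those of animals 22130 and 20275, 8 of 9 animals were lower, and the log2 fold change was -0.38 (SE 0.10, adjusted p = 0.0157). Neither ACADM, ACADS nor ACADVL passed the test from post-treatment to washout, with changes of 0.19, 0.32 and 0.25 (adjusted p = 0.289, 0.135 and 0.0547). ACADL (ENSG00000115361), for long chains, lay between 8.23 and 16.8 CPM pre-treatment (median 12.5), between 5.74 and 16.9 post-treatment (median 9.89) and between 12.5 and 24.3 at washout (median 15.8). Its change post-treatment was -0.18 (adjusted p = 0.339), and from there to washout it rose in 7 of 8 animals by 0.57 (SE 0.14, adjusted p = 0.00327).

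**Figure D3:**
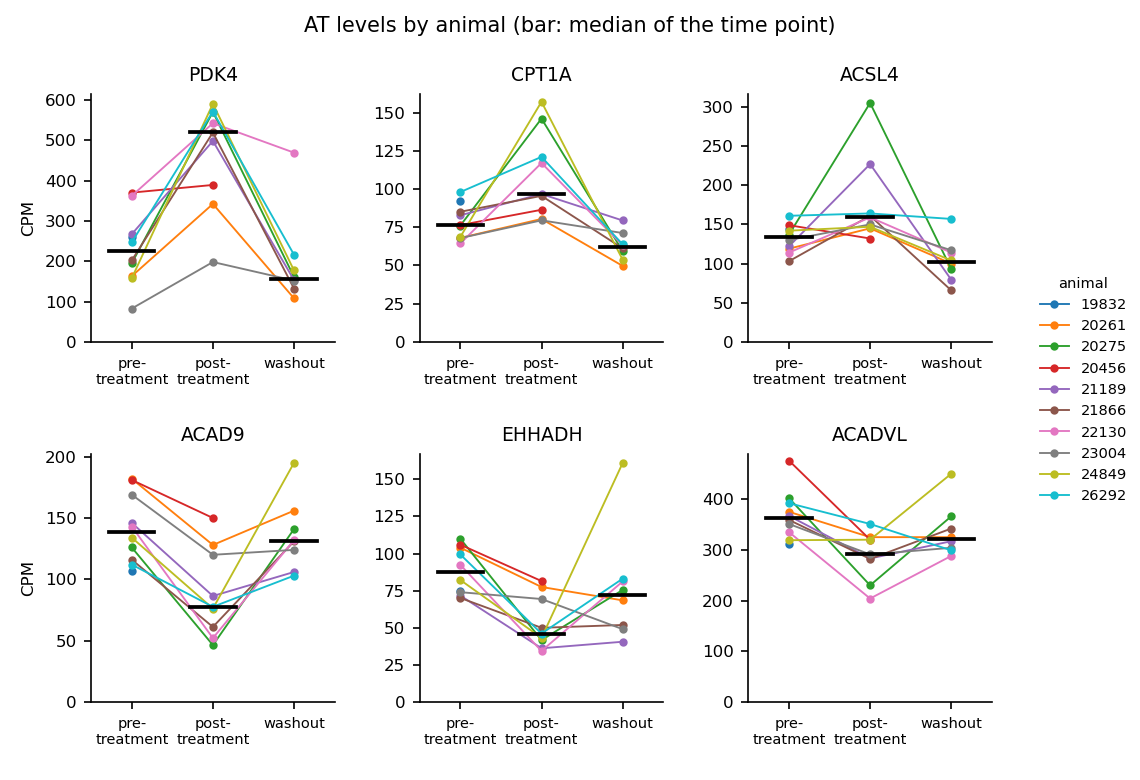
CPM (linear axes from 0) of 6 genes in each AT library at the 3 time points; lines join the libraries of 1 animal and black bars are medians. PDK4, CPT1A and ACSL4 peak post-treatment in most animals, and ACAD9 reaches its lowest level then in animal 20275 (46.4 CPM) and EHHADH in animal 22130 (34.4 CPM).

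The later steps of the cycle had negative changes post-treatment in 5 of 5 genes, against 45.7% of all genes tested. Of the 5, 1 was DE, against 8.49% of all genes DE and lower. HADHA (ENSG00000084754), the larger subunit of the trifunctional protein, lay between 340 and 632 CPM pre-treatment (median 407), between 251 and 472 post-treatment (median 345) and between 275 and 407 at washout (median 335). It was lower post-treatment in 8 of 9 animals (log2 fold change -0.30, SE 0.09, adjusted p = 0.0407) and its change from there to washout was -0.01 (adjusted p = 0.931). HADHB, the smaller subunit, was at 455 ± 45.8 CPM (mean ± SD) pre-treatment, 406 ± 50.6 post-treatment and 407 ± 63.3 at washout, with a change post-treatment of -0.18 (adjusted p = 0.154). HADH, the dehydrogenase for shorter chains, was at 548 ± 112, 438 ± 120 and 444 ± 135 CPM, and ACAA2, the mitochondrial thiolase, at 254 ± 50.7, 229 ± 47.8 and 199 ± 34.7 CPM. Neither of them was DE. ECHS1 (ENSG00000127884), the hydratase for short chains, lay between 127 and 228 CPM pre-treatment (median 168), between 86.4 and 193 post-treatment (median 123) and between 117 and 244 at washout (median 169). It was lower post-treatment in 9 of 9 animals by -0.35 (SE 0.12), just outside the threshold (adjusted p = 0.0577), and rose from there to washout by 0.38 (SE 0.13, adjusted p = 0.029), although only 4 of 8 animals were higher.

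Among the enzymes that prepare unsaturated chains, DECR1 (ENSG00000104325), a reductase, lay between 92.5 and 137 CPM pre-treatment (median 106), between 60.4 and 116 post-treatment (median 90.0) and between 91.4 and 148 at washout (median 110). It was lower post-treatment in 9 of 9 animals by -0.28 (SE 0.10), which did not pass the test (adjusted p = 0.0516), and rose to washout in 7 of 8 by 0.32 (SE 0.10, adjusted p = 0.0188). The isomerases ECI1 and ECI2 were at 22 ± 5.25 and 57.9 ± 9.79 CPM pre-treatment, 19.8 ± 2.63 and 53.7 ± 10.9 post-treatment, and 19.4 ± 4.71 and 56.5 ± 7.81 at washout, and neither was DE.

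Both genes of the peroxisomal route fell post-treatment, against 8.49% of all genes tested that were DE and lower. EHHADH (ENSG00000113790), the bifunctional enzyme that joins the hydratase and dehydrogenase steps there, lay between 70.1 and 110 CPM pre-treatment (median 87.3), between 34.4 and 81.5 post-treatment (median 46.1) and between 40.6 and 161 at washout (median 72.0). In 9 of 9 animals EHHADH was lower post-treatment, least in animal 23004, by -0.77 on the log2 scale (SE 0.19, adjusted p = 0.0152). At washout animal 24849 stood far above the rest with 161 CPM, and the rise from post-treatment of 0.53 (SE 0.20) reached an adjusted p of 0.0499, with 6 of 8 animals higher. That call was lost under 7 of 11 other settings, and within the last identifier series the change was 0.12 (adjusted p = 0.679). ACAA1 (ENSG00000060971), the peroxisomal thiolase, lay between 50.3 and 82.4 CPM pre-treatment (median 59.5), between 35.8 and 69.9 post-treatment (median 51.0) and between 42.1 and 62.3 at washout (median 52.1). ACAA1 was lower post-treatment in 9 of 9 animals by -0.30 (SE 0.10, adjusted p = 0.041), and its change to washout was 0.10 (adjusted p = 0.446).

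Electrons leave the dehydrogenases through a flavoprotein, whose subunits are ETFA and ETFB, and its oxidoreductase ETFDH. ETFDH (ENSG00000171503) lay between 69.5 and 128 CPM pre-treatment (median 95.3), between 42.9 and 105 post-treatment (median 70.9) and between 60.5 and 122 at washout (median 81.1). It was lower post-treatment in 8 of 9 animals, in overlapping groups, by -0.39 on the log2 scale (SE 0.12, adjusted p = 0.0406). ETFA (ENSG00000140374) lay between 86.4 and 145 CPM pre-treatment (median 113), between 89.0 and 145 post-treatment (median 113) and between 90.1 and 145 at washout (median 104), with a change of 0.03 post-treatment (SE 0.10, adjusted p = 0.872). ETFB was at 194 ± 38.9, 154 ± 38.1 and 154 ± 36.9 CPM (mean ± SD), and its change of -0.35 post-treatment did not pass the test (adjusted p = 0.114).

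The decrease post-treatment was uneven between animals. The number of the 34 genes with a lower value than pre-treatment ran from 14 in animal 24849 to 27 in animals 20456 and 23004, and the median change from -0.71 in animal 22130 to 0.05 in animal 24849, while between 46.6% and 50.7% of all genes were lower. Animal 22130 had the lowest post-treatment level of 17 of the 34 genes, and its adipocyte marker sum went from 29131 CPM pre-treatment to 9439 CPM post-treatment. In animal 20275 that sum went from 26704 to 11109 CPM, and the median change of the 34 genes was -0.47. The part of the fat cell content of the biopsies in these changes was not tested. Without animal 22130, 2 of the 34 genes were DE post-treatment, ACAD9 and PDK4, and without animal 20275, or without only its pre-treatment library, 5 were DE. The share of all genes DE in these smaller fits is not given here. These counts therefore do not show that the 34 genes lost more calls than other genes.

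PDK4 and ACAD9 were DE post-treatment with any of the 10 animals left out. CPT1A (adjusted p = 0.0523), EHHADH (0.0505) and ACADVL (0.0576) lost the call without animal 22130 alone, and ACADS lost it without 20275 or 22130 (highest adjusted p = 0.0738). ACSL1 lost it without 20275, 21866, 22130 or 24849 (highest adjusted p = 0.102), SLC27A1 without 20261, 20275, 22130, 24849 or 26292 (0.133), and ETFDH without 20275, 20456, 21189, 22130 or 26292 (0.101). ACAA1 lost it without 20261, 20275, 20456, 21189, 21866 or 22130 (0.143). ACADM lost it without any of 7 animals, all but 19832, 20261 and 21866 (0.109), and HADHA without any of 7, all but 19832, 20261 and 24849 (0.117). None of the 12 changed direction. From post-treatment to washout, ACAD9, ACADL, ACSL4, ACSL5, CPT1A, FABP3 and PDK4 kept the call with any animal left out. DECR1 lost it without 22130 or 24849 (0.0675), ECHS1 without 20275, 21866, 22130 or 24849 (0.0899), and EHHADH without 20275, 21189, 21866, 22130, 24849 or 26292 (0.168). Within the last identifier series DECR1 and ECHS1 changed by 0.10 and 0.19 and were not DE (adjusted p = 0.648 and 0.36), nor was ACADL (0.55, adjusted p = 0.107). With animal left out of the model, 6 genes were DE post-treatment (ACAD9, ACADM, ACADVL, CPT1A, EHHADH and PDK4) and 7 at washout. Within the AT libraries of the last identifier series, 4 genes were DE post-treatment: ACAD9 by -0.84, EHHADH by -0.91, PDK4 by 1.31, and ACSL5.

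At washout compared to pre-treatment, 2 of the 34 genes were DE in AT, against 20.5% of all genes tested. ACADL rose by 0.39 (SE 0.13, adjusted p = 0.0428), in 7 of 8 animals, and HADHA fell by 0.31 on the log2 scale (SE 0.10, adjusted p = 0.0312), also in 7 of 8. Of the 34 genes, 29 had a negative and 5 a positive log2 fold change, with a median of -0.19 against -0.02 over all genes; scaled by library totals alone these were 25 and 9, the median over all genes was 0.08, and the 2 genes DE were ACADL and SLC27A1, both higher. All 14 macrophage markers were also lower at washout than pre-treatment, with a median of -0.81 and 6 DE, and the endothelial marker CDH5 was higher by 0.52; their part was not tested. PDK4, CPT1A and EHHADH, with changes of -0.17, -0.30 and -0.25, did not pass the test. The count was 0 without animal 20261, 20275 or 26292, 1 without 21189, 21866, 22130 or 23004, and 4 without 24849. ACADL lost its call without 7 of the animals, all but 19832, 21866 and 24849 (highest adjusted p = 0.106), and HADHA without 20261, 20275, 21866, 23004 or 26292 (0.0805).

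In SM none of the 34 genes was DE at any time point. Post- vs pre-treatment 0.0% of the 12617 genes tested were DE, from post-treatment to washout 0.19%, and at washout compared to pre-treatment 0.0634%. At an unadjusted p under 0.05 there were 0, 3 and 1 of the 34 genes, and DESeq2 called 0, 0 and 0. The log2 fold changes of the 34 genes lay between -0.26 and 0.54 post-treatment (median 0.04, all genes -0.02), between -0.37 and 0.54 from there to washout (median -0.05, all genes -0.03) and between -0.31 and 0.71 at washout compared to pre-treatment (median 0.05, all genes -0.05). The standard errors were larger than in AT: 0.24 against 0.10 for ACADVL, 0.23 against 0.14 for ACAD9 and 0.77 against 0.19 for PDK4 post-treatment.

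PDK4 varied most. In SM it lay between 82.1 and 1090 CPM pre-treatment (median 111), between 50.5 and 2283 post-treatment (median 153) and between 59.3 and 854 at washout (median 236). Pre-treatment animal 20275 stood alone with 1090 CPM against at most 134 in the other 5, and post-treatment animals 22130 and 20456 held 2283 and 1334 CPM. The change post-treatment was 0.54 (SE 0.77, adjusted p = 1.0), with 2 of 6 animals higher. PPARA lay between 36.3 and 50.8 CPM pre-treatment (median 46.0), between 14.4 and 96.0 post-treatment (median 51.5) and between 53.9 and 96.6 at washout (median 77.0). The washout and pre-treatment libraries did not overlap and 6 of 6 animals were higher at washout, but the change of 0.71 (SE 0.27) did not pass the adjustment over all genes (adjusted p = 0.305). The share of all genes whose groups separate in this way was not counted. PPARA was DE in that comparison with voomWithQualityWeights of limma and with the identifier series in the model. PPARD lay between 2.94 and 6.88 CPM pre-treatment (median 5.62), between 2.21 and 9.49 post-treatment (median 3.88) and between 4.96 and 8.35 at washout (median 6.99), in overlapping groups.

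The carnitine shuttle in SM was level on the whole but wide. CPT1B lay between 45.5 and 123 CPM pre-treatment (median 75.5), between 41.8 and 155 post-treatment (median 79.5) and between 37.3 and 101 at washout (median 82.5). Animal 20456 was the highest post-treatment, the groups overlapped, and the change was -0.09 (SE 0.24). CPT1A lay between 4.49 and 26.6 CPM pre-treatment (median 11.4), between 6.56 and 22.2 post-treatment (median 13.6) and between 8.61 and 37.8 at washout (median 10.7). Its highest library pre-treatment was that of animal 24849 and at washout that of animal 22130. CPT2 lay between 12.4 and 27.2, between 8.02 and 27.6 and between 11.5 and 32.2 CPM at the 3 time points (medians 18.7, 17.9 and 22.2), and SLC25A20 between 25.7 and 61.5, between 19.5 and 63.9 and between 27.3 and 45.9 CPM (medians 37.0, 40.4 and 41.6). CRAT lay between 154 and 311 CPM pre-treatment (median 278), between 49.1 and 391 post-treatment (median 244) and between 244 and 549 at washout (median 312), with overlapping groups. MLYCD lay between 17.8 and 34.7, between 12 and 62.1 and between 18.3 and 42.5 CPM (medians 25.9, 21.9 and 32.8).

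Single libraries set the range of many genes in SM. Animal 20275 had the highest level of 21 of the 34 genes pre-treatment and of 21 at washout, and animal 20456 of 23 post-treatment; animal 21189 had the lowest level of 18 post-treatment and animal 22130 of 23 at washout. FABP3 shows this: it lay between 96.7 and 346 CPM pre-treatment (median 183), between 130 and 407 post-treatment (median 180) and between 65.3 and 414 at washout (median 181), with animals 20275, 20456 and 20275 at the top. The same libraries were the highest in the sum of 5 slow fibre markers, genes of the contractile apparatus of the fibre type that relies on oxidation: 9296 CPM in animal 20275 pre-treatment (the other 5 between 47.1 and 6898), 31783 in animal 20456 post-treatment (the other 7 between 371 and 13755) and 27032 in animal 20275 at washout (the other 6 between 2570 and 23966). The library of animal 21189 held the lowest sum of muscle fibre markers post-treatment (54990 CPM), and that of animal 22130 the lowest at washout (156836 CPM). The low end did not match at each time point. Pre-treatment, animal 22130 had the lowest slow fibre sum (47.1 CPM) but the lowest level of 3 of the 34 genes and the highest of 6. Post-treatment the lowest sum was that of animal 21866 (371 CPM), lowest for 11 genes, and at washout that of animal 22130 (2570 CPM), lowest for 23. The part of the fibre types and of other cells in these differences was not tested. Within animals, the number of the 34 genes lower than pre-treatment ran from 5 in animal 23004 to 30 in animals 20275 and 21189 post-treatment, with median changes from -0.65 to 0.49, while between 48.4% and 57.7% of all genes were lower.

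**Figure D4:**
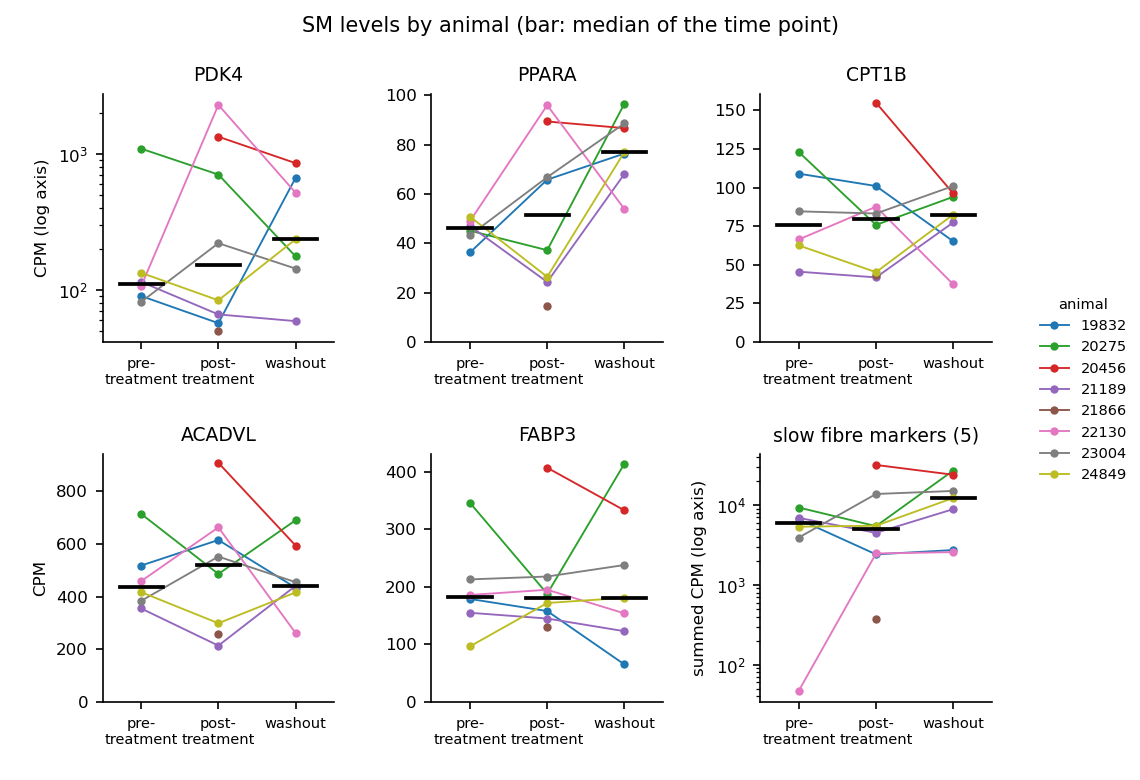
CPM of 5 genes, and summed CPM of 5 slow fibre markers, in each SM library at the 3 time points; lines join the libraries of 1 animal, black bars are medians, and the axes of PDK4 and of the slow fibre markers are log axes. Animal 20456 is highest post-treatment for CPT1B, ACADVL, FABP3 and the slow fibre sum (31783 CPM), and lines run both up and down.

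The remaining genes in SM moved as little. From post-treatment to washout ACAA1, ETFB and PPARD had an unadjusted p under 0.05, with changes of -0.37, -0.27 and 0.54, and the lowest adjusted p of the 34 genes was 0.233. Adding the identifier series as a term made 5 genes DE in that comparison, all higher: ACAD9, CRAT, PDK2, PPARA and PPARD. ACSL5 lay between 1.91 and 7.91 CPM pre-treatment (median 3.12), between 2.35 and 10.1 post-treatment (median 3.62) and between 2.06 and 9.83 at washout (median 2.69). Its highest library was that of animal 24849 pre- and post-treatment, where the adipocyte markers were also highest (765 and 1174 CPM), and that of animal 22130 at washout, where the macrophage markers were highest (422 CPM). Neither marker list went with ACSL5 at all 3 time points. At washout the adipocyte sum was highest in animal 20456 (245 CPM, against 102 in animal 22130). The macrophage sum was highest in animal 24849 pre-treatment (247 CPM), but in animal 21189 post-treatment (277 CPM, against 261 in animal 24849). The part of these cells was not tested.

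Whether the 2 tissues differed in their change was tested as the SM change minus the AT change. Post- vs pre-treatment none of the 34 genes differed, against 0.0487% of the 12322 genes tested in both tissues; 10 genes had an unadjusted p under 0.05 and DESeq2 called 0. The difference was positive for 25 of the 34 genes, with a median of 0.35 against 0.01 over all genes, and the largest were 0.83 for EHHADH (SE 0.30, adjusted p = 0.302) and 0.81 for ACSL1 (SE 0.30, adjusted p = 0.317). From post-treatment to washout 3 of the 34 genes differed, against 22.7% of all genes tested. The difference was 1.07 for CPT1A (SE 0.35, adjusted p = 0.0273), which changed by -0.80 in AT and 0.27 in SM. It was 0.85 for ACSL4 (SE 0.23, adjusted p = 0.00834), with -0.78 in AT and 0.05 in SM, and -0.50 for DECR1 (SE 0.16, adjusted p = 0.0267), with 0.32 in AT and -0.19 in SM. Scaled by library totals alone the median over all genes moved from -0.03 to -0.25, and 8 of the 34 genes differed, all lower in SM. DECR1 was among these 8, but CPT1A and ACSL4 were not. CPT1A also lost its call with voomWithQualityWeights. DECR1 lost its call without animal as a term and with the identifier series as covariate. The count was 1 without animal 24849 and 5 without animal 26292. ACSL4 lost its call without 21189 (adjusted p = 0.0549), CPT1A without 19832, 21189, 22130 or 24849 (highest adjusted p = 0.0735), and DECR1 without 20456, 22130 or 24849 (0.123).

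Before treatment most of the 34 genes differed in level between SM and AT, as did 72.5% of the 13398 genes tested (34.3% higher in SM and 38.3% lower). SM was higher for 16 of the 34 genes and lower for 10, in a fit of the pre-treatment libraries with tissue and animal, in which 6 animals gave both tissues. A few genes of the contractile apparatus take a large share of the counts in SM, where the 10 muscle fibre markers alone summed to a median of 181191 CPM, and the fit scales for this; its fold differences are therefore larger for genes higher in SM than the ratio of the CPM values above. Scaled by library totals alone the median over all genes moved from -0.10 to -0.93, and 9 of the 34 genes were higher and 14 lower. The differences below are relative to the former scale.

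FABP3, CPT1B, MLYCD and CRAT stood highest above AT. FABP3 was 16.5-fold higher in SM (log2 difference 4.04, SE 0.47), CPT1B 7.54-fold (2.91, SE 0.20), MLYCD 4.08-fold (2.03, SE 0.22) and CRAT 3.36-fold (1.75, SE 0.22). PPARA followed with 3.17-fold (1.66, SE 0.17), ahead of ECI1 (1.5, SE 0.34) and ETFA (1.5, SE 0.19), whose SM levels of 18.0 to 53.8 CPM (median 32.7) and 134 to 246 CPM (median 164) pre-treatment compare with the AT levels of 13.7 to 28.4 CPM (median 21.2) and 86.4 to 145 CPM (median 113). ACADL, at 12.3 to 31.3 CPM in SM (median 17.5), was 2.63-fold higher (1.39, SE 0.17). The differences of PDK2, ACADVL, ETFDH, DECR1, SLC27A1, SLC25A20, ACADM and ECI2 were smaller, from 1.39 down to 0.35. ACADM and ECI2 had differences of 0.57 and 0.35 that turned to -0.26 and -0.48 with scaling by library totals alone.

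AT was higher for the other form of the controlling enzyme and for most synthetases. CPT1A was at 0.269 of the AT level in SM (-1.89, SE 0.34), where CPT1B was the higher, so that the 2 forms went opposite ways between the tissues. ACSL5 (-3.78, SE 0.28), ACSL1 (-2.20, SE 0.22) and ACSL3 (-1.26, SE 0.18) were lower in SM, and ACSL4 was not DE (-0.23, adjusted p = 0.304). ACSL1 lay between 104 and 193 CPM in SM pre-treatment (median 144). Both peroxisomal genes were lower in SM, EHHADH by -1.46 (SE 0.12), at 11.8 to 20.8 CPM (median 16.6), and ACAA1 by -0.60 (SE 0.15), as were HADH (-1.13), ACAD9 (-1.08), PPARD (-1.07) and ETFB (-0.88). The genes of the trifunctional protein, HADHA and HADHB, and CPT2, ACADS, ECHS1, ACAA2 and PDK4 were not DE between the tissues. No call among the 26 was lost with 1 animal left out except those of ACADM (without 20275, 21189 or 22130, highest adjusted p = 0.0804) and ECI2 (without 19832, 20275, 21189 or 23004, 0.134).

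**Figure D5:**
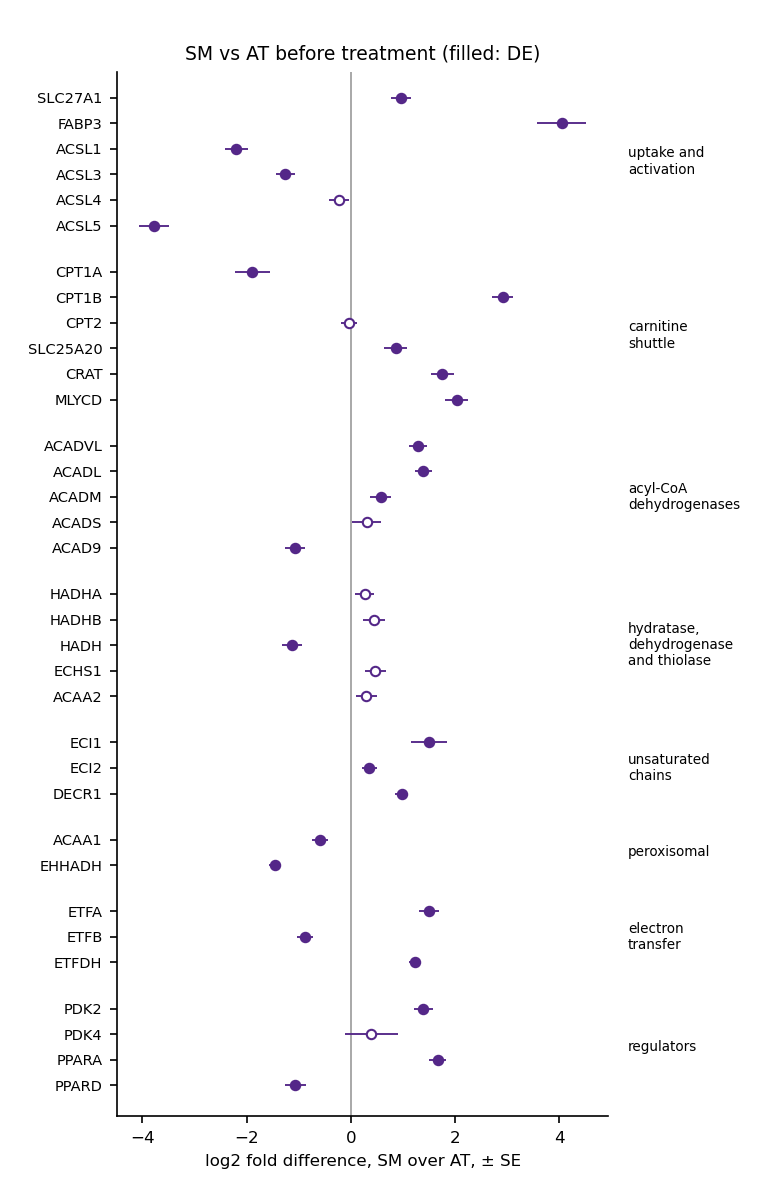
Log2 fold difference, SM over AT, with standard errors for the 34 genes in pre-treatment libraries, grouped by role; filled points are DE. FABP3 (4.04) and CPT1B (2.91) lie farthest right, and ACSL5 (-3.78), ACSL1 (-2.20) and CPT1A (-1.89) farthest left.

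Other genes in and around the pathway were counted from lists. Of 30 further genes of mitochondrial, carnitine and neighbouring lipid metabolism tested in AT, 10 were DE post-treatment, against 15.5% of all genes tested. Of these, 2 were higher (ACSS1, an acetyl-CoA synthetase, and PDP1, a phosphatase that switches pyruvate dehydrogenase on) and 8 lower. The largest decreases were those of LPIN1, a phosphatidate phosphatase (-1.38), ACACA, the acetyl-CoA carboxylase of fatty acid synthesis (-1.22), and ACSL6, a synthetase (-1.17). Neither LPIN1 nor ACACA is an enzyme of oxidation. The others were ACAD10, ACAD11, HSD17B10, PCCB and PDK3. From there to washout 10 of the 30 were DE, 7 higher and 3 lower, against 35.4% of all genes tested. SLC22A5, the carnitine transporter of the cell membrane, rose by 0.77 (adjusted p = 8.94e-05). Of 15 further peroxisomal genes 3 were DE post-treatment, against 15.5% of all genes tested. PEX7 was higher, and 2 were lower: ACOX3, an oxidase of the first peroxisomal step (-0.51), and PECR, a reductase (-0.61). From post-treatment to washout 5 of the 15 were DE, 2 higher and 3 lower, against 35.4% of all genes tested. Among the higher was ACOX2, another oxidase, by 1.21 (adjusted p = 4.63e-06). Of 5 genes of ketone body metabolism none was DE post-treatment in AT, 4 of them with an unadjusted p under 0.05, and BDH1 fell to washout by 0.60 on the log2 scale. In SM none of the 30, 15 and 5 genes of these lists was DE at any time point; post-treatment 0, 1 and 0 of them had an unadjusted p under 0.05 there.

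Of 19 further regulators tested in AT, 2 were DE post-treatment, both lower, against 15.5% of all genes tested. PPARG, the receptor that drives fat cell formation, fell by 0.70 on the log2 scale (SE 0.16, adjusted p = 0.0111). It lay between 222 and 417 CPM pre-treatment (median 310) and between 110 and 277 CPM post-treatment (median 188). PRKAA2, a catalytic subunit of the energy sensor AMPK, fell by 0.71 (adjusted p = 0.0154). PPARGC1A, the coactivator that drives mitochondrial genes, lay between 2.23 and 12.9 CPM pre-treatment (median 7.02) and between 2.31 and 6.11 post-treatment (median 2.83). Its change of -0.79 (SE 0.29) did not pass the test (adjusted p = 0.0668), and from there to washout it rose by 1.02 (SE 0.30, adjusted p = 0.0134). PPARGC1B and ESRRA, a coactivator and a receptor with overlapping targets, changed by 0.01 and -0.05 post-treatment (adjusted p = 0.986 and 0.714). From post-treatment to washout 8 of the 19 were DE, 5 higher and 3 lower, against 35.4% of all genes tested. At washout compared to pre-treatment 7 were DE, 3 higher and 4 lower, against 20.5%, with PRKAB2, another AMPK subunit, lowest at -1.05. In SM, where PPARGC1A was at 17.3 to 264 CPM pre-treatment (median 27.9), none of the 19 regulators was DE at any time point, with 0, 5 and 6 of them at an unadjusted p under 0.05 in the 3 comparisons.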

How the data were processed

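RNA was sequenced from AT and SM biopsies as polyA-selected, stranded libraries read from both ends. Reads were aligned with STAR to the MacaM rhesus assembly, and the authors deposited gene counts that were not normalized. Of 51 labelled samples, 48 had counts; 3 SM samples were not analysed here. The table held 16103 entries, of which 70 were identical repeats and were dropped, leaving 16033 genes.

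Genes above 0.5 CPM in 10% or more of a tissue's libraries were scaled by TMM and tested with edgeR 4.0.16 (R 4.3.3; quasi-likelihood, time point and animal as terms, 1 fit per tissue), after the study's own model terms. The 2 tissues were compared in joint fits. CPM values on the log2 scale, and the changes within single animals taken from them, used a prior count of 2. Plain CPM values used none, and the fold changes of the tests came from the fits. The animal pairs the samples: deviations from the group means had a median correlation of 0.352 over 25 pairs of AT libraries from the same animal, against -0.035 over 217 other pairs, and of 0.279 over 19 SM pairs against -0.046 over 127. Alternatives were DESeq2 1.42.0, voomWithQualityWeights of limma 3.58.1, DESeq2 size factors or library totals as scaling, no filter on low counts, no animal term, the identifier series as covariate or its last series alone, and each animal left out. The earlier quasi-likelihood method of edgeR was added after seeing the data. The fits were tested on simulated data with a log2 fold change of 1.5. Post- vs pre-treatment, 187 of 200 changed genes were recovered in AT and 157 in SM. Unchanged genes called DE numbered 16 and 8. The changes of the fatty acid oxidation genes in that comparison were smaller, from -0.77 to 1.12 in AT and from -0.26 to 0.54 in SM. Recovery of such smaller changes was not tested, so the simulation says nothing about missed changes of that size in either tissue.

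All 34 genes are named, with lowest, median and highest CPM for those DE between time points in AT, the 12 that differed most between the tissues and 8 chosen by role. The genes, the other lists and the tests were chosen with earlier results of these data known. No sequences were used.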

Additional observations from a re-analysis of the deposited data

Results flagged for a closer look

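In 12 of 204 gene and group combinations the highest or lowest library stood apart from the others of its group by Dixon's test at the 95% level. Chance flags about 1 in 20 groups. Values here are on the log2 CPM scale, with the group's median after each.

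PDK4 stood apart in 3 groups: low in animal 23004 in AT post-treatment (7.63, median 9.02), high in animal 22130 in AT at washout (8.87, median 7.29) and high in animal 20275 in SM pre-treatment (10.09, median 6.79). Among AT libraries post-treatment, SLC25A20 (4.71, median 5.36) and HADHB (8.21, median 8.74) were low in animal 22130, and PPARA was low in animal 20275 (3.69, median 4.48). ACSL3 was low in animal 21189 in AT pre-treatment (5.53, median 6.04).

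Among SM libraries, ETFDH was low in animal 21189 (6.29, median 6.91) and PPARD in animal 19832 (1.61, median 2.52) pre-treatment. FABP3 was high in animal 20456 post-treatment (8.67, median 7.49). At washout ACAD9 was high in animal 20275 (5.77, median 5.27) and ACSL5 in animal 22130 (3.31, median 1.49).

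For 3 genes the change from post-treatment to washout differed between the tissues in the test of that difference: the SM change minus the AT change was 1.07 for CPT1A, 0.85 for ACSL4 and -0.50 for DECR1 on the log2 scale. Each of these calls was lost under some alternatives.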

How the results depend on the processing

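The share of all genes DE under each alternative is not set beside the counts below, so they do not set the 34 genes apart from other genes. In AT post- vs pre-treatment, 12 of the 34 genes were DE; the count was 4 in the last identifier series alone, 5 without the pre-treatment library of animal 20275, and from 2 to 12 with 1 animal left out. Without the replicate block, that is without animal as a term, it was 6. At washout compared to pre-treatment in AT the count of 2 went to 10 with voomWithQualityWeights, 4 with DESeq2, 1 without a filter on low counts, 5 with the identifier series as covariate, 8 with only the 2 time points compared, 1 in the last series alone, 1 without the pre-treatment library of animal 20275, and from 0 to 4 with 1 animal left out; without the replicate block it stayed at 2. From post-treatment to washout in AT the count stayed within 1.5 times of 10, with 7 without the replicate block and from 7 to 10 with 1 animal left out. The split of 5 higher and 5 lower did not hold as well. It was 2 and 6 with voomWithQualityWeights, 1 and 6 in the last series alone, and 2 and 5 with only the 2 time points compared. The rises of DECR1, ECHS1 and EHHADH lost the call in each of these settings.

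In SM the count was 0 in all 3 comparisons, also without the replicate block and with any animal left out; it was 5 from post-treatment to washout and 1 at washout compared to pre-treatment with the identifier series as covariate, and 1 in the latter with voomWithQualityWeights. For the difference between the tissues from post-treatment to washout the count of 3 went to 5 with DESeq2, 8 with library totals alone, 5 with the identifier series as covariate, and from 1 to 5 with 1 animal left out. For the level between tissues it stayed within 1.5 times of 26, from 24 to 26 with 1 animal left out, but ACADM (-0.26) and ECI2 (-0.48) reversed with library totals alone. The causes were not tested. Of 1026 recomputed values of DE genes, 881 kept direction and side of the threshold, 143 kept only the direction and 2 reversed. These values pool all comparisons, among them the level between tissues with its 26 DE genes. The calls between time points were lost more often than those between tissues, so the pooled numbers overstate how stable they were.

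The main limits are the few animals, the lack of an untreated group over the same time, and the identifier series, which is uneven over the time points. A further limit in AT is that 6 of 14 macrophage markers and 2 of 4 fat cell markers were DE post-treatment.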

Other observations

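The tricarboxylic acid cycle, which burns the acetyl-CoA that fatty acid oxidation makes, was measured through 17 genes. Post-treatment in AT 6 of them were DE, all lower, while 8.49% of all genes tested were DE and lower. Whatever the p, 16 of 17 had negative changes, with a median of -0.29 against 0.03 over all genes. Among the 6 were CS, the citrate synthase (-0.55), IDH3A, a subunit of isocitrate dehydrogenase (-0.51), and MDH2, a malate dehydrogenase (-0.70). From there to washout 6 rose, against 17.6% of all genes tested, among them CS by 0.47, IDH3A by 0.36 and MDH2 by 0.50. The post-treatment libraries enter both comparisons. In SM none of the 17 was DE in edgeR, with 0, 1 and 0 at an unadjusted p under 0.05 in the 3 comparisons.

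Of 7 PPAR target genes outside fatty acid oxidation, 1 fell in AT post-treatment, against 8.49% of all genes tested: G0S2, an inhibitor of fat breakdown (-0.86). From there to washout 4 fell, against 17.8% of all genes tested. They were ANGPTL4, an inhibitor of lipoprotein lipase (-1.11), PLIN2, a lipid droplet coat protein (-0.77), TXNIP (-0.50) and the mitochondrial carrier UCP2 (-1.31).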
